A study of Homo sapiens with 9 samples.

Results

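The miR-146 miRNAs are examined here across a trapping experiment in ES-2 cells, a long-established line of human ovarian cancer cells. The members are the rows of the count table named hsa-miR-146a-5p, hsa-miR-146b-5p and hsa-miR-146b-3p (written without the species prefix from here on), which are 3 of 2652 miRNA names in the count table and 3 of the 1500 names with at least 1 count. In miTRAP, a bait RNA with MS2 loops is immobilised on a resin, incubated with cell lysate and eluted with the RNAs it retained. The 9 small RNA libraries comprised 3 of the input, which is lysate before trapping, 3 of the MS2 control, whose bait had no 3'UTR, and 3 of the PD-L1 3'UTR, whose bait carried the 3'UTR of the immune checkpoint gene PD-L1 (CD274). All groups came from the same wild-type, untreated line, with no donor or animal involved. According to the methods far more of the PD-L1 3'UTR bait than of the MS2 control bait was supplied. Bait sequence and bait amount therefore cannot be told apart between the trapped groups. The labels do not say whether replicates came from separate cultures, and p-values measure only the spread between these libraries.

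miR-146a and miR-146b are known as feedback miRNAs of innate immune signalling. Transcription of miR-146a in particular is raised by NF-kB downstream of Toll-like and interleukin-1 receptors. The 5p arms of both repress the adaptors IRAK1 and TRAF6, which damps that signalling. An miRNA hairpin yields a 5p and a 3p arm, of which usually one, the guide, is loaded into Argonaute, while the other is mostly degraded. The guide recognises targets mainly through its seed, and the 5p arm is the guide of both hairpins.

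The mature sequences are shown because the 5p arms carry the same seed and differ only near their 3' ends, whereas each 3p arm has a seed of its own. Sequences and positions are from RefSeq on GRCh38.p14, all 3 members matched it, and capitals mark the seed, bases 2 to 8 from the 5' end.
miR-146a-5p: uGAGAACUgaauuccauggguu
miR-146b-5p: uGAGAACUgaauuccauaggcug
miR-146b-3p: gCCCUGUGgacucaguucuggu
miR-146a-3p: cCUCUGAAauucaguucuucag

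miR-146a-5p lies on the plus strand at chr5:160485372-160485393, in a hairpin within the span of the long non-coding RNA gene MIR3142HG. On chromosome 10, miR-146b-5p occupies chr10:102436520-102436542 and miR-146b-3p chr10:102436557-102436578, both on the plus strand, and the MIR146B hairpin lies within no other RefSeq gene. The first 17 bases of the 5p arms are identical. Counted from 1 at the 5' end of miR-146a-5p, the changes to miR-146b-5p are G18A and U21C, and miR-146b-5p has 23 bases against 22. Reads that end before the first of these changes cannot be told apart between the arms, and how the authors assigned them is not given in the sources used here. The only other name in the reference with this seed, miR-7153-5p, had 0 counts in all 9 libraries. Among the 2370 mature names there, the seed was thus represented at this depth by the 5p arms of miR-146a and miR-146b. Names of the count table outside the reference were not searched.

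The input libraries had totals between 3794799 and 5983577 miRNA counts. Trapped libraries were shallower, at 1156261 to 2236535 counts for the MS2 control and 672824 to 1237652 counts for the PD-L1 3'UTR. Levels are counts per 1000000 (CPM) scaled by TMM, a between-library normalisation that assumes most miRNAs do not change. A level is thus a share of the library, not an amount bound. Of the miRNAs with counts, 408 passed the filter on low counts and were tested, miR-146a-5p and miR-146b-5p among them, whereas miR-146b-3p did not pass. PD-L1 3'UTR replicate 1 stood apart by marker miRNAs of other cell types. There, miR-451a, an erythroid miRNA, had 736.3 CPM against 42.93 and 76.91 CPM in replicates 2 and 3, and miR-203a-3p, found in keratinocytes, had 546.5 CPM against 14.76 and 1.451 CPM. Both were also above all input libraries in every other trapped library. miR-451a had 2.314 ± 0.191 CPM in the input and 66.47 ± 29.75 CPM in the MS2 control (SD, n = 3). miR-203a-3p had 0.0751 ± 0.1301 and 8.205 ± 2.849 CPM there (SD, n = 3). The 6 blood cell markers, 3 of which passed the filter, summed to between 191.2 and 266.7 CPM in the input, between 310.2 and 359.5 CPM in the MS2 control and between 541.3 and 1424 CPM in the PD-L1 3'UTR libraries. Among them, miR-144-3p was at 0 in all input and PD-L1 3'UTR libraries and miR-150-5p in all MS2 control libraries. The 6 epithelial markers summed to between 41.68 and 55.51, between 60.53 and 89.22 and between 38.46 and 783 CPM in the same order, and miR-429 was at 0 throughout. Most of the input sum was miR-200c-3p (41.29 ± 6.689 CPM, SD, n = 3), so the other epithelial markers were near 0 in this cancer line.

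Both 5p arms were readily detected in the lysate, and miR-146a-5p was the more abundant. miR-146a-5p had 1150, 810.5 and 815.1 CPM in input replicates 1, 2 and 3 (mean 925.1 ± 194.5, SD, n = 3), which placed it 69th of the 1313 miRNAs detected in the input. miR-146b-5p had 236.8, 168.2 and 165.8 CPM (190.3 ± 40.28, SD, n = 3) and was 124th. Every input library thus held more miR-146a-5p than miR-146b-5p, and in bulk lysate fewer cells with a miRNA cannot be told apart from less of it per cell. The neighbours of miR-146a-5p in this order, miR-30e-3p with 938.8 ± 87.66 CPM and let-7c-5p with 898.9 ± 146.6 CPM, differed from it by less than 1 SD. The same held for miR-146b-5p and its neighbours miR-339-5p, at 192.4 ± 10.53 CPM, and miR-652-3p, at 186.3 ± 26.73 CPM.

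The passenger arms were rare. miR-146b-3p had 9, 4 and 15 counts in the input, equal to 2.368, 1.349 and 3.379 CPM, and was 479th of the 1313 detected. Its neighbours in that order were miR-3065-5p at 2.377 CPM and miR-548a-3p at 2.352 CPM. miR-146a-3p, the partner of miR-146a-5p, had 2, 1 and 8 counts in the same libraries. The 5p arm therefore made up nearly all counts of either hairpin in these cells.

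Both 5p arms were higher in the PD-L1 3'UTR trap than in the MS2 control. This comparison sets the 3'UTR bait against a smaller amount of a bait without it. miR-146a-5p had 357.5, 379.1 and 317.0 CPM in the MS2 control (351.2 ± 31.49, SD, n = 3). The PD-L1 3'UTR libraries held 1378, 1623 and 1814 CPM of it (1605 ± 218.7, SD, n = 3). The groups did not overlap, and the gap between them was wider than the spread within either. The level rose by 2.19 ± 0.19 on the log2 scale (SE), a 4.568-fold difference (edgeR quasi-likelihood test, Benjamini-Hochberg adjusted p = 2.41e-06). miR-146b-5p had 300.0, 377.1 and 339.0 CPM in the MS2 control (338.7 ± 38.56, SD, n = 3) against 1578, 1559 and 1801 CPM (1646 ± 134.5, SD, n = 3). Here too the groups did not overlap, with a log2 difference of 2.28 ± 0.18 (SE), or 4.858-fold (edgeR, Benjamini-Hochberg adjusted p = 1.53e-06). Both members tested were thus among the 31.4% of tested miRNAs called higher in this comparison, while 28.7% were called lower. In the order of log2 fold changes they stood at places 65 and 62 of 408, above the upper quartile of 1.32, and the median of all tested was 0.02.

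**Figure D1:**
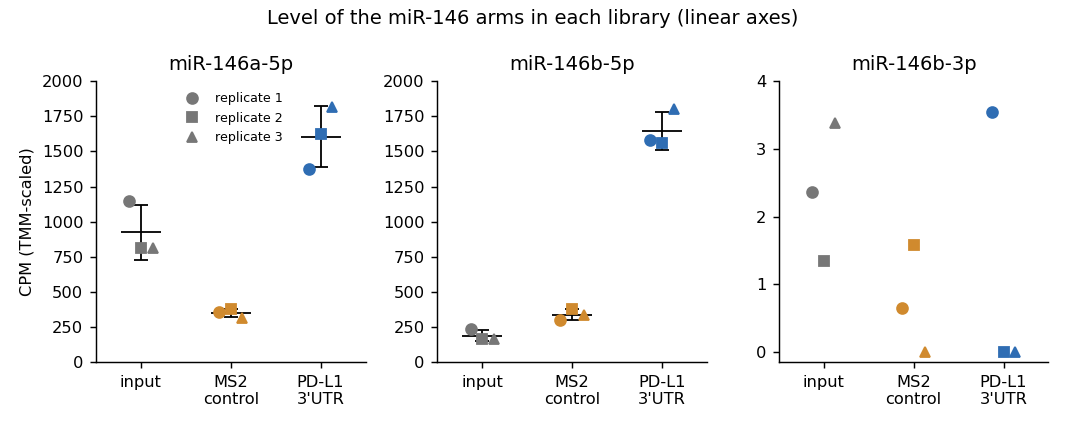
TMM-scaled CPM (y axes, linear, with a smaller range for miR-146b-3p) of the members in the input, MS2 control and PD-L1 3'UTR groups (x axes). Symbols are single libraries, and horizontal and error bars are the mean and SD of 3 replicates, omitted for miR-146b-3p. Both 5p arms are highest in the 3 PD-L1 3'UTR libraries, miR-146a-5p is lowest and miR-146b-5p intermediate in the MS2 control, and miR-146b-3p stays between 0 and 3.54 CPM.

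Against the input the 5p arms differed in size of change. On trapping with the PD-L1 3'UTR, miR-146b-5p rose 8.649-fold, a log2 difference of 3.11 ± 0.19 (SE, edgeR, Benjamini-Hochberg adjusted p = 2.72e-07). miR-146a-5p rose 1.735-fold, a log2 difference of 0.79 ± 0.18 (SE, edgeR, Benjamini-Hochberg adjusted p = 0.00259). For both, all 3 trapped libraries lay above all 3 input libraries. In this comparison 34.1% of tested miRNAs were called higher and 32.4% lower, and the members stood at places 52 and 135 of 408. The smaller rise of miR-146a-5p was not called when all miRNAs were tested without the filter, at 0.53 with an edgeR Benjamini-Hochberg adjusted p of 0.0561. Both arms were among the 18.9% of tested miRNAs called higher with the 3'UTR than in both other groups.

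The MS2 control against the input compares shares of the library after trapping without a 3'UTR with those in the lysate, not amounts retained. Here the arms moved in opposite directions. miR-146a-5p fell by 1.40 on the log2 scale (SE 0.18, edgeR, Benjamini-Hochberg adjusted p = 6.55e-05), and each control library was below each input library. miR-146b-5p rose by 0.83 ± 0.18 (SE, edgeR, Benjamini-Hochberg adjusted p = 0.00166), a 1.78-fold difference, with each control library above each input library. Without the filter this rise was 0.57 and only just called (edgeR, Benjamini-Hochberg adjusted p = 0.0494). Calls were common here as well, with 32.8% of tested miRNAs higher and 37.0% lower, although TMM assumes that most do not change. miR-146a-5p was at place 306 and miR-146b-5p at place 138 of 408. The full pattern of miR-146a-5p, highest with the 3'UTR and lower in the control than in the input, was shared by 8.58% of tested miRNAs. The pattern of miR-146b-5p, highest with the 3'UTR and higher in the control than in the input, occurred in 2.45%.

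Comparisons with the input depended on scaling in size but not in direction for the separate arms. With library totals in place of TMM, the median log2 difference of all tested miRNAs moved from 0.04 to 0.60 for the PD-L1 3'UTR and from 0.02 to 0.65 for the MS2 control. The share of calls that were higher moved from 51.3% to 68.3% and from 47.0% to 65.7%, respectively. On that scale miR-146a-5p differed by 1.36 with the 3'UTR and by -0.77 in the control, and miR-146b-5p by 3.68 and 1.46, all still called by edgeR. A change of scaling moves all miRNAs of a comparison by nearly the same amount, so the order of the arms relative to the median could hardly differ between scales. PD-L1 3'UTR replicate 1 was the library highest in miR-451a and miR-203a-3p. Without it, the rises over the MS2 control were 2.32 for miR-146a-5p and 2.34 for miR-146b-5p, and those over the input were 0.84 and 3.09, all called by edgeR. The trapped libraries that remained also held these markers above the input.

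**Figure D2:**
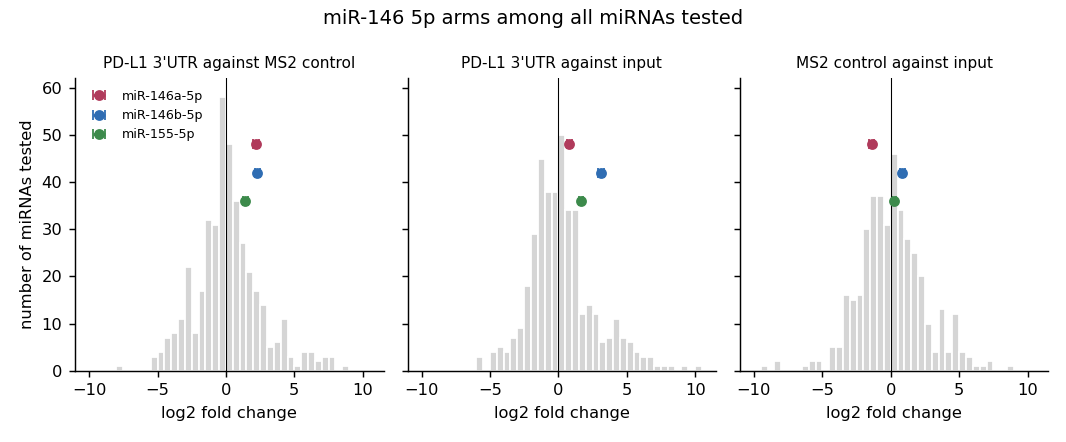
Histograms of the log2 fold change (x axes) of the 408 tested miRNAs in the 3 comparisons, with the number of miRNAs on the y axes. Points with SE bars mark miR-146a-5p, miR-146b-5p and, for reference, miR-155-5p, at heights chosen for legibility only. The 5p arms coincide at 2.19 and 2.28 against the MS2 control and separate to either side of 0, at -1.40 and 0.83, for the MS2 control against the input.

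The ratio of miR-146a-5p to miR-146b-5p within a library does not depend on how libraries are scaled. The input libraries held 4.85, 4.81 and 4.91 miR-146a-5p counts per miR-146b-5p count (0.5 counts added to each). The MS2 control libraries held 1.19, 1.01 and 0.94, and the PD-L1 3'UTR libraries 0.87, 1.04 and 1.01. Thus the arms were near parity in all 6 trapped libraries, with either bait, and miR-146a-5p prevailed in all 3 input libraries.

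On the log2 scale the mean ratio was 2.28 ± 0.01 in the input, 0.05 ± 0.18 in the MS2 control and -0.04 ± 0.14 with the PD-L1 3'UTR (SD, n = 3 each). The 3 groups differed in an exact permutation test over all 1680 assignments (one-sided, p = 0.0214, adjusted p = 0.0393 over the ratios tested, smallest possible p 0.00357). Against the input, the log2 ratio fell by 2.32 with the 3'UTR (SE 0.08) and by 2.23 in the control (SE 0.1), without overlap. In the two-sided exact permutation test each of these gave p = 0.1, the smallest that 3 against 3 libraries allow (adjusted p = 0.15 over 6 comparisons). For scale, the quartiles of the log2 differences of all tested miRNAs from the input were -1.26 and 1.31 with the 3'UTR. In the control they were -1.40 and 1.45. Both shifts of the ratio were smaller than the distance between those quartiles, and other pairs of miRNAs were not compared. Between the trapped groups the log2 ratio differed by -0.10 (SE 0.13) and the libraries overlapped (exact permutation p = 0.6, adjusted p = 0.6). A difference between the baits in this ratio was not detected, and 3 libraries each leave room for a small one.

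**Figure D3:**
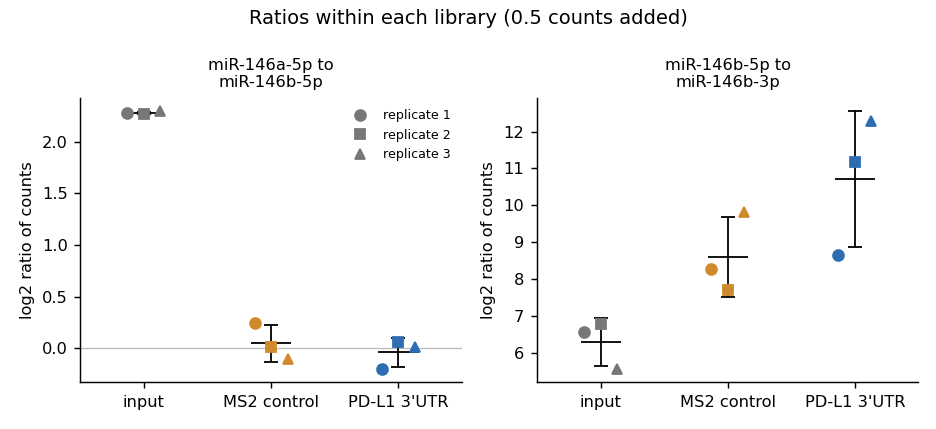
Log2 ratios of counts within each library (y axes, 0.5 counts added) by group (x axes), for miR-146a-5p to miR-146b-5p and for miR-146b-5p to miR-146b-3p. Symbols are single libraries, and horizontal and error bars are the mean and SD of 3 replicates. The first ratio is near 2.28 in the input and near 0 in all trapped libraries, whereas the second is lowest in the input and spreads widely after trapping.

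As short reads of the 5p arms cannot be told apart, their counts were also summed as 1 feature of the shared seed. The sum was 1386, 978.7 and 980.9 CPM in the input and 657.5, 756.2 and 656.0 CPM in the MS2 control. It reached 2956, 3182 and 3615 CPM in the PD-L1 3'UTR libraries. The groups did not overlap. miR-146a-5p supplied 82.94% ± 0.14 of this sum in the input, 50.94% ± 3.11 in the control and 49.27% ± 2.34 with the 3'UTR (SD, n = 3). With the 3'UTR the sum rose by 2.24 on the log2 scale over the control (edgeR, Benjamini-Hochberg adjusted p = 1.23e-06) and by 1.56 over the input (adjusted p = 2.38e-05). It fell by 0.69 from input to control (edgeR adjusted p = 0.00412), a call that library totals did not give, at -0.06 with an edgeR adjusted p of 0.722.

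The 3p arms gave no call in any comparison. miR-146b-3p had 1, 4 and 0 counts in the MS2 control and 5, 0 and 0 with the PD-L1 3'UTR, where all counts came from replicate 1, the library with the highest marker miRNAs. Summed over replicates and divided by library totals without TMM, this was 1.886 CPM in the input (exact 95% Poisson interval 1.253 to 2.726), 1.079 in the control (0.3503 to 2.517) and 1.592 with the 3'UTR (0.517 to 3.716), and the intervals cover counting error only. In the edgeR fit without the filter, miR-146b-3p differed by 0.57 ± 1.36 (SE) on the log2 scale between the PD-L1 3'UTR and the MS2 control (Benjamini-Hochberg adjusted p = 0.938). Such values depend on the prior count, and their SE shows that even large differences would not have been detected at this depth. miR-146a-3p had 0 counts in the MS2 control, which allows up to 0.6472 CPM of the library totals by the floor of 3 counts over the group and up to 0.7959 CPM by the two-sided 95% Poisson interval used above, and 1 count with the PD-L1 3'UTR.

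The arms of the MIR146B hairpin were further apart in each trapped library than in the input, with ratios that rest on few 3p counts. miR-146b-5p summed to 2135, 1863 and 5873 counts in the input, control and 3'UTR groups, beside 28, 5 and 5 counts of miR-146b-3p. The log2 ratio of 5p to 3p was 6.57, 6.79 and 5.57 in the input, 8.27, 7.72 and 9.81 in the MS2 control and 8.66, 11.18 and 12.28 with the PD-L1 3'UTR. All 6 trapped libraries had a higher ratio than all 3 input libraries, and the trapped groups overlapped. Against the input, the log2 ratio was higher by 4.40 with the 3'UTR (SE 1.13) and by 2.29 in the control (SE 0.73), each with p = 0.1 in the two-sided exact permutation test, the smallest possible (adjusted p = 0.15). Between the trapped groups it differed by 2.11 (SE 1.24, exact permutation p = 0.2, adjusted p = 0.24). These sizes turned on single libraries. Without PD-L1 3'UTR replicate 1 the differences of the 3'UTR were 5.42 from the input and 3.13 from the control, and without replicate 3 they were 3.61 and 1.32. Without MS2 control replicate 3, the control differed from the input by 1.69 and the 3'UTR from the control by 2.71. The 3 groups differed in the exact permutation test (one-sided, p = 0.0393, adjusted p = 0.0393), a call that was lost when 1 library of the input or the first of the MS2 control was left out, with exact permutation p between 0.05 and 0.0821. Ratios with a 3p count of 0 rest on the 0.5 counts added.

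The 3'UTR sequence was searched for seed matches of the members as a description of the bait's template. The CD274 3'UTR of the reference annotation (GENCODE on GRCh37, transcript CD274-202, exon 7) spans 2692 bases at chr9:5467863-5470554 on the plus strand, and how far the bait extended was not analysed here. For the shared 5p seed, none of the 6mer GTTCTC, the 7mer-m8 AGTTCTC, the 7mer-A1 GTTCTCA or the 8mer AGTTCTCA occurred on the transcript strand. Of 4191 annotated 3'UTRs at least as long, read over the same length, 49.1%, 18.4%, 20.9% and 6.9% held these motifs, each longer motif containing the 6mer. The lack of a match says only that these letters are not in this window.

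The seed of miR-146b-3p, the arm with almost no reads, had 2 matches of the 7mer-A1 ACAGGGA, which 19.3% of the 3'UTRs held, and 0 of the 7mer-m8 CACAGGG, which 20.8% held. They are shown, on the transcript strand with the match in capitals, because the arms with reads had no such match.
chr9:5468053-5468059: atggagtcaaACAGGGAgcctggaggg
chr9:5468116-5468122: gacgcctgtgACAGGGAgaaaggatac

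The 5p arms, which were 4.568-fold and 4.858-fold higher with the 3'UTR than in the control, thus had 0 seed matches in the annotated 3'UTR, and miR-146b-3p, which had 2, was too rare for a test of any precision. A match is a description of the sequence and not a binding site.

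The miRNAs closest to the members across the 9 libraries were sought by the Pearson correlation of log2 CPM, given as a description because all points share 3 groups. For miR-146a-5p these were miR-10a-3p (r = 0.983), miR-454-3p (r = 0.978) and miR-20a-5p (r = 0.976). All 3 were, like miR-146a-5p, higher with the 3'UTR than in both other groups and lower in the control than in the input. Picking by this correlation favours such likeness. For miR-146b-5p the closest were miR-130a-3p (r = 0.978), miR-140-5p (r = 0.973) and miR-155-5p (r = 0.968). miR-130a-3p and miR-155-5p rose over both other groups but were not called between control and input, whereas miR-140-5p was called there as well, at 0.37 ± 0.13 (SE, edgeR, Benjamini-Hochberg adjusted p = 0.0304). The 5p arms themselves correlated with r = 0.595 (n = 9), which placed miR-146b-5p 104th in the order of miR-146a-5p and miR-146a-5p 97th in that of miR-146b-5p.

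NF-kB is known to induce miR-146a, though induction was not measured in these untreated cells. A list of 16 other miRNAs known to respond to NF-kB or Toll-like receptors was therefore examined, of which 10 passed the filter. Among the others, miR-223-3p is also on the list of blood cell markers. Over the MS2 control, 5 of the 10 were higher with the 3'UTR and 0 lower, where 31.4% and 28.7% of all tested were, with a median log2 difference of 0.95 beside 0.02 for all tested. The 5 were miR-155-5p, miR-9-5p, miR-21-3p, miR-125b-5p and miR-31-5p. miR-155-5p, a pro-inflammatory partner of miR-146 in macrophages, rose from 11480 ± 769 to 30600 ± 7121 CPM (SD, n = 3), or by 1.41 ± 0.17 (SE, edgeR, Benjamini-Hochberg adjusted p = 2.85e-05), and the libraries did not overlap. miR-31-5p had the largest rise of the 10, by 3.21 ± 0.17 (SE, edgeR, Benjamini-Hochberg adjusted p = 7.92e-08), from 446.6 ± 68.34 to 4133 ± 616.0 CPM. miR-9-5p, also induced by Toll-like receptors, rose by 2.31 ± 0.26 (SE, edgeR, Benjamini-Hochberg adjusted p = 1.96e-05), a size near that of the members. The list as a whole was therefore split, with miR-21-5p at 0.15, miR-132-3p at -0.62, miR-132-5p at -0.20 and miR-31-3p at 0.14 not called, nor miR-9-3p at 1.89 (edgeR, Benjamini-Hochberg adjusted p = 0.0507).

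Over the input, 5 of the 10 were higher with the 3'UTR and 3 lower, beside 34.1% and 32.4% of all tested (median 0.86 beside 0.04). The rises were those of miR-155-5p, miR-9-5p, miR-132-5p, miR-125b-5p and miR-31-5p, and the falls those of miR-132-3p, miR-21-5p and miR-31-3p. In the MS2 control against the input, 1 of the 10 was higher and 6 were lower, beside 32.8% and 37.0% of all tested (median -1.02 beside 0.02). miR-9-5p followed miR-146a-5p in being lower in the control than in the input, by -1.03 ± 0.25 (SE, edgeR, Benjamini-Hochberg adjusted p = 0.00371), and among the 10 tested only miR-132-5p was, like miR-146b-5p, higher there, by 1.70 ± 0.29 (SE, edgeR, Benjamini-Hochberg adjusted p = 0.000433). Any pair of these comparisons shares 1 group of libraries, so they are not independent.

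**Figure D4:**
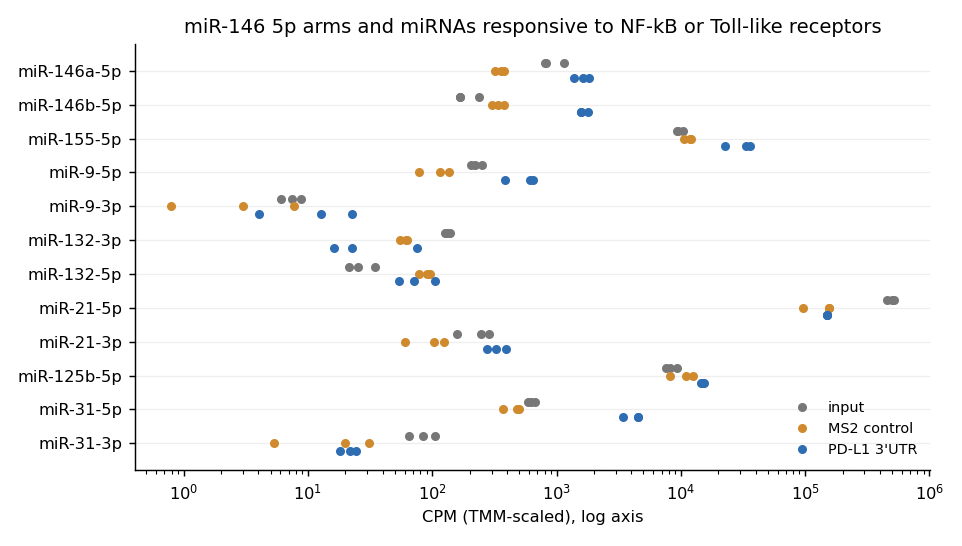
TMM-scaled CPM (x axis, log scale) of miR-146a-5p, miR-146b-5p and the 10 tested miRNAs of the NF-kB or Toll-like receptor list (y axis), with 1 point per library and 3 per group. miR-155-5p, miR-9-5p, miR-125b-5p and miR-31-5p have their 3 PD-L1 3'UTR libraries to the right of all others, as do the 5p arms of miR-146, whereas miR-21-5p, miR-132-3p and miR-31-3p are highest in the input.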

How the data were processed

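Small RNA of 9 libraries in 3 groups was deposited as a table of raw counts, with 1 row for each genomic locus of a mature miRNA. Per the study's methods and the submitters' processing notes, the authors used cutadapt 1.18 for trimming, Bowtie2 2.2.6 for alignment to the human genome (hg38 in the notes) and featureCounts 1.6.3 with miRBase for counting. The treatment of reads that fit several miRNAs and of strand is not given in the sources used here. Counts were summed over loci of a name (169 names, 400 of 2883 rows), and each member has 1 locus.

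edgeR 4.0.16 (R 4.3.3) was fitted with 3 group means to all libraries (filterByExpr, TMM, quasi-likelihood F test, two-sided, Benjamini-Hochberg, threshold 0.05). The fitted biological coefficient of variation was 31.1% in common. The SE is the log2 difference divided by the square root of F. Ratios had 0.5 counts added, and exact permutation tests used scipy 1.17.1. A floor of 3 counts was worth 0.501 to 4.459 CPM of the library totals, and PCR reads are not independent molecules. All replicate pairs differed beyond sampling noise. In each group the pairs with replicate 1 differed most, with a chi-square per degree of freedom between 93.83 and 155.86. Replicates 2 and 3 were closer, at 8.6 in the input, 30.52 in the MS2 control and 17.9 with the PD-L1 3'UTR. This fit was also run on simulated counts with a single common spread and balanced rises and falls in the PD-L1 3'UTR group only. That setting is simpler than these libraries, so the run does not bear on how well the fit suits them.

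The members, the lists and the rules for named miRNAs (list members, seed sharers, partner arms, input neighbours and the 3 closest by correlation) were chosen with earlier results of these data known. Alternatives were other scalings and filters, DESeq2 1.42.0, a replicate block and leaving out each library. The sums of the 5p arms and the 3-group tests' alternatives were added after the data were seen. Seed matches used the reference 3'UTR, with 19385 3'UTRs annotated.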

Additional observations from a re-analysis of the deposited data

How the results depend on the processing

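For miR-146a-5p and miR-146b-5p, directions held in all 3 comparisons under all 17 alternatives, and every call but 1 was kept. Their log2 rises over the MS2 control stayed between 2.07 and 2.32 and between 2.16 and 2.35. The rise of miR-146a-5p over the input ranged from 0.53, without the filter (edgeR adjusted p = 0.0561, no longer called), to 1.36, with library totals, and its adjusted p reached 0.0489 with 1 library left out. Its fall in the control ranged from -1.66 to -0.77. The rise of miR-146b-5p in the control over the input ranged from 0.57, without the filter (edgeR adjusted p = 0.0494), to 1.46, with library totals. Its adjusted p reached 0.035 with 1 library left out. With library totals the summed 5p arms differed by -0.06 between control and input (adjusted p = 0.722). With 1 library left out, miR-146b-3p ranged from -3.94 to 1.80 between the PD-L1 3'UTR and the control, turning over to -3.94 without PD-L1 3'UTR replicate 1 (adjusted p = 0.402), the only 3'UTR library with its counts. The log2 ratio of miR-146a-5p to miR-146b-5p then ranged from -0.17 to 0.00 between the baits (0.00 without MS2 control replicate 1). The 3-group exact permutation p of the ratio of miR-146b-5p to miR-146b-3p ranged from 0.00357 to 0.0821, at 0.0536, 0.05 and 0.0821 without input replicate 1, 2 or 3 and 0.05 without MS2 control replicate 1. A mean of at least 10 CPM left no value for miR-146b-3p.

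Same-numbered libraries correlated by between -0.179 and 0.129 in their deviations, so the numbers were not taken as pairs. With the replicate number as a replicate block, miR-146a-5p differed by 0.81 with the 3'UTR and by -1.39 in the control against the input, and miR-146b-5p by 3.12 and 0.84. All calls of both arms stood, those against the MS2 control included, and 243, 263 and 276 miRNAs were called in the 3 comparisons. Counts of called miRNAs stayed within 1.5 times under all alternatives. Depth limits the 3p arms, and in trapped libraries 3 counts were worth up to 4.459 CPM of the library total.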

Other observations

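In the NF-kB or Toll-like receptor list, 4 miRNAs had both arms tested, and over the MS2 control 1 arm was called and the other not in 3 of them. miR-31-5p rose by 3.21 ± 0.17 (SE) while miR-31-3p was at 0.14 ± 0.49, and miR-21-3p rose by 1.78 ± 0.31 while the far more abundant miR-21-5p was at 0.15 ± 0.17 (edgeR log2 differences). miR-9-5p rose by 2.31 ± 0.26 beside 1.89 ± 0.76 for miR-9-3p, and neither miR-132-3p, at -0.62 ± 0.46, nor miR-132-5p, at -0.20 ± 0.29, was called. The difference between arms was not tested for any of them. miR-155-3p, the partner of miR-155-5p, did not pass the filter used for the counts of this list and was at 0 in all input libraries, against 1.332 ± 0.1654 CPM after trapping with the MS2 control bait and 5.66 ± 2.641 CPM after trapping on the 3'UTR (SD, n = 3). These levels rest on 7 counts in all in the control and 21 with the 3'UTR. In the edgeR fit without the filter, whose values depend on the prior count here, miR-155-3p was called higher in the control than in the input (Benjamini-Hochberg adjusted p = 0.0237). It was also called higher with the 3'UTR than in the input in that fit (edgeR, Benjamini-Hochberg adjusted p = 0.00022). Between the 3'UTR and the control it was not called (edgeR, Benjamini-Hochberg adjusted p = 0.237).

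miR-3142, whose hairpin lies in the same host gene as that of miR-146a, had 2 counts in all, both in MS2 control replicate 2.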
